A study of Mus musculus with 9 samples.

Results

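The genes described here belong to the actomyosin machinery of midbrain dopamine (DA) neurons of mouse embryos. They are the light chain genes Myl12a, Myl12b, Myl9 and Myl6, the non-muscle myosin II heavy chain genes Myh9 and Myh10, and the p21-activated kinase genes Pak1, Pak2, Pak3 and Pak6. These 10 genes, of 47729 genes counted, were chosen by their names and because Myl12a was higher and Pak6 lower in neurons with 2 floxed Dot1l alleles than in neurons with none, so that comparison is given for them as a description and without a test. All 10 passed the filter on low counts, which 17988 genes passed in all. The 8 libraries were RNA-seq of cells isolated by fluorescence at embryonic stage E15.75, 3 from Dot1l(+/+), 3 from Dot1l(fl/+) and 2 labelled Dot1l(fl/fl), and each library was a pool of 3 or 4 embryos. Embryos of every genotype also carried Pitx3-Cre on 1 allele and a Rosa-lox-stop-lox-YFP reporter that Cre switches on, on a C57/Bl6 background. None of the groups was thus free of Cre. In the study the loxP sites flank an exon of Dot1l, which is removed only where Pitx3 is active. Dot1l encodes the methyltransferase of lysine 79 on histone H3. The library Dot1l(fl/fl) 3 was not analysed here.

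Non-muscle myosin II is a motor of 2 heavy chains, each of which carries an essential light chain (Myl6) and a regulatory light chain (Myl12a, Myl12b or Myl9). Phosphorylation of the regulatory light chain by light chain kinase and other kinases switches the motor on, and it then pulls on actin in growth cones, migrating neurons and dividing cells. Pak kinases act below the GTPases Rac and Cdc42: Pak1, Pak2 and Pak3 form group I, which these GTPases activate and which acts on LIM kinase and so on cofilin, and Pak6 belongs to group II with Pak4 and Pak5. In neurons both families are known for their part in neurite growth and spine shape.

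Myl12a and Myl12b lie side by side on the minus strand of chromosome 17 (GRCm38), Myl12a from 70993656 to 71002878 and Myl12b from 70973133 to 70990890. The coding sequences are 516 bases long in both, with 498 identical bases (96.5%) and no gap. The first 240 coding bases, from base 1, are shown because they hold both long stretches that a sequencing read cannot assign to either gene and the positions that can tell them apart. Capitals mark the 14 positions in this stretch at which the genes differ.

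Myl12a: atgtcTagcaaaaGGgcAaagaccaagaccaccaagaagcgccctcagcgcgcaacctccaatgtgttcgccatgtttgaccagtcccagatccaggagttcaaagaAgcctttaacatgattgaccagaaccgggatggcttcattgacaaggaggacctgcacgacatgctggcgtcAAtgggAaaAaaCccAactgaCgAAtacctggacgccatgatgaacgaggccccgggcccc

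Myl12b: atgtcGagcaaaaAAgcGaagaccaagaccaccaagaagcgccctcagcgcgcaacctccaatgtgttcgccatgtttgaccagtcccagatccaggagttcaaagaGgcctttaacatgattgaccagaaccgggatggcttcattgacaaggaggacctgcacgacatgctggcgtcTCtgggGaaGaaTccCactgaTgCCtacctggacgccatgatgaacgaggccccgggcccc

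The longest run of identical coding bases between them was 102 bases. Over all annotated exons, however, only 5.65% of the 50-base words of Myl12a also occurred in Myl12b, and 7.07% of those of Myl12b in Myl12a. These are shares of distinct words and not of reads, and Myl12b had the higher level (123 against 17.5 CPM in Dot1l(+/+)). Shared reads of Myl12b would therefore weigh more on Myl12a than the reverse. How reads shared between genes were counted is not given in the sources used here. The split of reads between this pair is thus uncertain, above all for Myl12a. Exons of Myl12a also overlap exons of Myom1 on the opposite strand; the kit kept the strand, but the strand setting of the counting is not given in the sources used here. Of the other genes, Myl6 shared 8.38% of its words with other counted genes and Pak2 3.77%, while Myh9, Myh10 and Pak6 shared 0.68%, 0.689% and 0.438%. Myl9, Pak1 and Pak3 shared none.

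The other members were spread over the genome. Myl9 (2:156775420-156781658) and Pak6 (2:118663303-118698020) lie on the plus strand of chromosome 2. Myl6 lies on chromosome 10 (128490860 to 128494145), Myh10 on chromosome 11 (68691559 to 68816632) and Myh9 on chromosome 15 (77760587 to 77842175). Pak1 lies on chromosome 7 (97788541 to 97912381), Pak2 on chromosome 16 (32016290 to 32079342) and Pak3 on chromosome X (143518591 to 143797796).

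RefSeq (GRCm38.p6) gave 14 upstream windows of 250 bases for 9 of the 10 genes, all but Pak2. They were searched on both strands for 4 motifs: the CArG box bound by serum response factor, which is known for driving smooth muscle and cytoskeletal genes, the E-box CACGTG, the cAMP response element TGACGTCA and the GC box GGGCGG. The CArG box was found in 2 of the 14 windows, those of Myl9 and Myl6, against 1.47% of all 32851 such windows. CACGTG was found in 3 (Myl12a, Pak1 and Pak3) against 6.02% of all windows, TGACGTCA in 2 (Myl6 and Pak1) against 1.55%, and GGGCGG in 8 against 32.7%. The longest stretches of the Myl12a and Myl9 windows that lie outside annotated exons are shown. These genes encode the regulatory light chain behind the choice of the genes and the one with the least settled values below. The Myl12a stretch lies upstream of the RefSeq start but within the annotated gene, which runs to 71002878. Capitals mark the motifs.

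Myl12a, 17:71002555-71002632, minus strand: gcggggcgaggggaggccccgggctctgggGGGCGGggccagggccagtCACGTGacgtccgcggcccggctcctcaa

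Myl9, 2:156775214-156775419, plus strand: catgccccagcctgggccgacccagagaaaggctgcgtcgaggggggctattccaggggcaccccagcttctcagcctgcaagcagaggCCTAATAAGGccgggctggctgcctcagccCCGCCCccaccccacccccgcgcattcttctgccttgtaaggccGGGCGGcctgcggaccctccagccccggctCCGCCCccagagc

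A motif match describes the sequence and does not show that a factor binds there.

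Library totals ran from 13616922 to 43674673 counts, with the 2 Dot1l(fl/fl)-labelled libraries the shallowest. Levels are given as CPM, a gene's counts relative to the library total, adjusted by TMM factors, and 3 counts, the most that a count of 0 allows, came to between 0.0694 and 0.216 CPM, counting error alone. Dot1l itself was at 84.6 to 105.2 CPM in Dot1l(+/+) and at 65.6 to 76.2 CPM in Dot1l(fl/+). It was at 64.9 and 99.1 CPM in Dot1l(fl/fl)-labelled libraries 1 and 2. The gene count did not separate library 2 of that label from the controls, nor library 1 clearly from Dot1l(fl/+). As the loxP sites flank an exon and the count covers the whole gene, it is no check of the deletion. All 12 dopaminergic marker genes, Th, Pitx3 and Nr4a2 among them, were present in every library, with a summed level of 6630 to 7540 CPM in Dot1l(+/+), 6570 to 7070 in Dot1l(fl/+) and 6410 and 5350 in the Dot1l(fl/fl)-labelled libraries. Markers of microglia summed to 74.3 to 107 CPM and those of radial glia and progenitors to 222 to 262. Markers of oligodendrocyte precursors summed to 4.96 to 12 CPM, of fibroblasts and meninges to 0.926 to 6.12 and of skeletal muscle to 1.11 to 3.02. Markers of other neurons summed to 374 to 417 CPM in Dot1l(+/+), 391 to 434 in Dot1l(fl/+) and 448 and 425 in the Dot1l(fl/fl)-labelled libraries, both above Dot1l(+/+). Blood markers summed to 40.4 CPM in Dot1l(fl/fl)-labelled library 2 and to 11.9 to 19.4 CPM elsewhere. In bulk samples, fewer cells of a type and less RNA per cell cannot be told apart. With edgeR's quasi-likelihood test the percentage of all 17988 genes with an adjusted p under 0.05 was 0 in each of the 3 comparisons of genotypes (0 genes). According to the study's methods the genotypes were pooled in sets paired by nest, but the labels tie no replicate number to a set, and the p-values given here come from a fit without pairing and measure the spread between these pools.

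Per kilobase of annotated exon, the kinases Pak1 and Pak3 led. In Dot1l(+/+), Pak1 came first with 67.5 CPM per kb (mean of 3 libraries, range 63.4 to 70.1), followed by Pak3 with 56.1 (55.7 to 56.5). Myl12b, the main regulatory light chain gene in these cells, had 44.3 CPM per kb (40.9 to 48.9), and Myh10, the heavy chain known as myosin IIB, had 40.5 (34.6 to 45.4). The ranges of Myl12b and Myh10 overlapped, so their order is not settled.

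Pak6 followed with 29.6 CPM per kb, Pak2 with 19.0, Myl6 with 11.5 and Myl12a with 5.20, and none of these neighbours overlapped. Myl9 with 1.86 and Myh9, the heavy chain known as myosin IIA, with 1.58 CPM per kb overlapped at the bottom, and this pair changed places when the length of the longest coding transcript was used (1.92 and 2.75). On that coding scale the ranges of Pak3 and Myl12b (61.4 to 62.4 and 52.9 to 63.2 CPM per kb) and of Pak2 and Myl6 (21.5 to 23.6 and 19.8 to 26.3) overlapped as well, so the order within these pairs depends on the length used. Over all libraries, Pak1 per kb exceeded 96.2% of the 17925 tested genes with a known length, while Myh9 exceeded 34.4%.

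**Figure D1:**
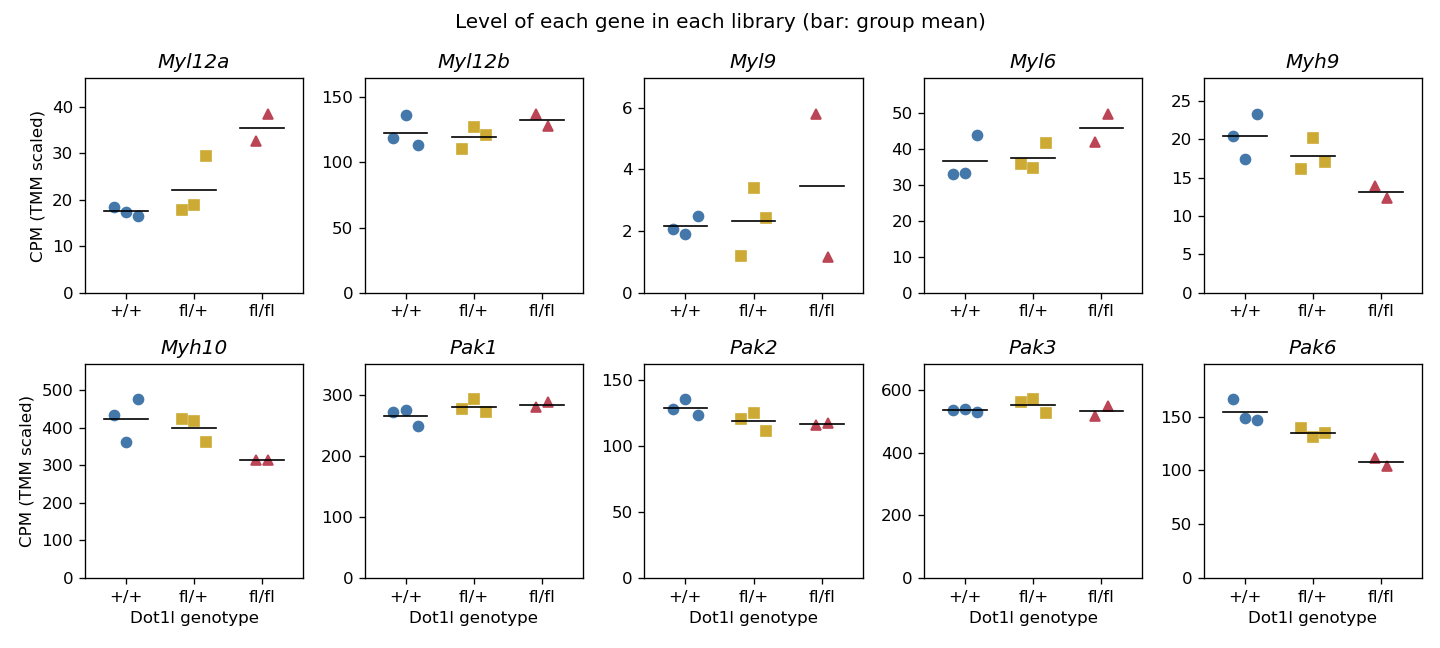
Level of the 10 genes in each of the 8 libraries, as TMM-scaled CPM on linear axes that start at 0; each point is a library, the shape and colour give the Dot1l genotype and the bar is the group mean. Both libraries labelled Dot1l(fl/fl) lie above all others for Myl12a and below all others for Myh9, Myh10 and Pak6, whereas Pak3 shows no order.

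Among the regulatory light chains, Myl12a gave the widest separation, which its choice for being higher in Dot1l(fl/fl) favours. It was at 18.5, 17.4 and 16.6 CPM in Dot1l(+/+) 1 to 3, at 17.9, 18.8 and 29.5 CPM in Dot1l(fl/+) 1 to 3, and at 32.6 and 38.4 CPM in Dot1l(fl/fl)-labelled libraries 1 and 2. The 2 Dot1l(fl/fl)-labelled libraries thus exceeded all others, and Dot1l(fl/+) 3 stood apart from the other 2 libraries of its genotype. The means were 17.5 ± 0.97 (SD, n = 3), 22.1 ± 6.46 (SD, n = 3) and 35.5 ± 4.06 CPM (SD, n = 2).

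The log2 fold change of Myl12a in Dot1l(fl/fl) against Dot1l(+/+), the comparison that chose it, was 1.02 ± 0.21 (SE), a fold of 2.03, and was 0.90 with Dot1l(fl/fl)-labelled library 2 left out. In Dot1l(fl/+) against Dot1l(+/+) it was 0.34 ± 0.19, which missed the threshold (edgeR adjusted p = 0.94, unadjusted 0.0857). A single library decided that value: without Dot1l(fl/+) 3 it was 0.07. The third comparison, Dot1l(fl/fl) against Dot1l(fl/+), which shares the Dot1l(fl/fl) libraries with the choosing comparison, gave 0.68 ± 0.21 (edgeR adjusted p = 0.998, unadjusted 0.00322), and 0.95 without Dot1l(fl/+) 3. Dot1l(fl/+) 3 also had the highest summed level of 8 endothelial markers (17.5 CPM, against 4.40 and 12.5 CPM in the other Dot1l(fl/+) libraries, 6.49 to 10.3 CPM in Dot1l(+/+) and 12.6 and 11.4 CPM in the Dot1l(fl/fl)-labelled libraries). It was highest as well for mural cells and smooth muscle (6.85 CPM), fibroblasts and meninges (6.12 CPM) and skeletal muscle (3.02 CPM). In Dot1l(+/+) these lists summed to 3.24 to 6.18, 0.926 to 5.02 and 1.11 to 2.35 CPM. In Dot1l(fl/fl)-labelled libraries 1 and 2 they summed to 4.21 and 3.46, 2.73 and 1.73, and 2.41 and 1.73 CPM. Of their matched genes, 7 of 10, 4 of 6 and 4 of 5 were under 1 CPM in every library. Dot1l(fl/+) 3 was not highest for microglia, blood, radial glia and progenitors, oligodendrocyte precursors or other neurons. The part of other cell types in the Myl12a level was not tested.

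Its neighbour and near copy Myl12b did not show this pattern. Myl12b was at 119, 136 and 113 CPM in Dot1l(+/+), at 110, 127 and 121 CPM in Dot1l(fl/+), and at 137 and 128 CPM in the Dot1l(fl/fl)-labelled libraries. The first and the last group overlapped, and the log2 fold change between them was 0.11 ± 0.12. It was -0.04 ± 0.10 in Dot1l(fl/+) against Dot1l(+/+) (edgeR adjusted p = 0.997) and 0.15 ± 0.12 for Dot1l(fl/fl) against Dot1l(fl/+) (edgeR adjusted p = 0.998).

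The share of Myl12a within the pair was therefore uneven across libraries. Of the summed CPM per kb of Myl12a and Myl12b, Myl12a made up 11.4%, 9.55% and 10.7% in Dot1l(+/+), 11.8%, 10.9% and 16.7% in Dot1l(fl/+), and 16.4% and 19.9% in the Dot1l(fl/fl)-labelled libraries. Myl12b remained the larger contributor in every library.

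Myl9, the regulatory light chain known from smooth muscle, had the fewest counts of the 10 genes. It had 54, 67 and 108 counts in Dot1l(+/+), 35, 97 and 69 in Dot1l(fl/+), and 106 and 16 in the Dot1l(fl/fl)-labelled libraries, or 2.08, 1.91 and 2.50, then 1.18, 3.41 and 2.43, then 5.79 and 1.15 CPM. The 2 Dot1l(fl/fl)-labelled libraries were thus the highest and the lowest of all. Between Dot1l(fl/fl) and Dot1l(+/+) its log2 fold change of 0.69 ± 0.61 turned to 1.42 when Dot1l(fl/fl)-labelled library 2 was left out and to -0.91 when library 1 of that label was, so it has no settled direction.

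Neither other comparison of Myl9 passed the test. Its log2 fold change was 0.11 ± 0.55 in Dot1l(fl/+) against Dot1l(+/+) (edgeR adjusted p = 0.997) and 0.58 ± 0.61 for Dot1l(fl/fl) against Dot1l(fl/+) (edgeR adjusted p = 0.998). Of the 10 markers of mural cells and smooth muscle, 7 were under 1 CPM in every library and Lmod1 was at 0 in all of them. Acta2 and Tagln reached at most 0.422 and 0.633 CPM. The summed level of this list was 3.24 to 6.18 CPM in Dot1l(+/+), 4.20 to 6.85 in Dot1l(fl/+), and 4.21 and 3.46 CPM in Dot1l(fl/fl)-labelled libraries 1 and 2. The markers of the list that reached 1 CPM had no common order between Dot1l(fl/fl)-labelled libraries 1 and 2. Pdgfrb was at 1.97 and 0 CPM, Rgs5 at 0.875 and 1.58 CPM and Vtn at 1.09 and 1.15 CPM. The part of such cells in the Myl9 values was not tested.

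Myl6, the essential light chain, was at 33.1, 33.4 and 43.8 CPM in Dot1l(+/+), at 35.9, 34.6 and 41.8 CPM in Dot1l(fl/+), and at 42.0 and 49.7 CPM in the Dot1l(fl/fl)-labelled libraries. The replicates with the number 3 were the highest of Dot1l(+/+) and of Dot1l(fl/+), and Dot1l(fl/fl)-labelled library 1 fell within the Dot1l(+/+) range. Myl6 had a log2 fold change of 0.32 ± 0.17 in Dot1l(fl/fl) against Dot1l(+/+) and 0.19 with Dot1l(fl/fl)-labelled library 2 left out. It was 0.02 ± 0.15 in Dot1l(fl/+) against Dot1l(+/+) (edgeR adjusted p = 0.997) and 0.29 ± 0.17 for Dot1l(fl/fl) against Dot1l(fl/+) (edgeR adjusted p = 0.998).

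**Figure D2:**
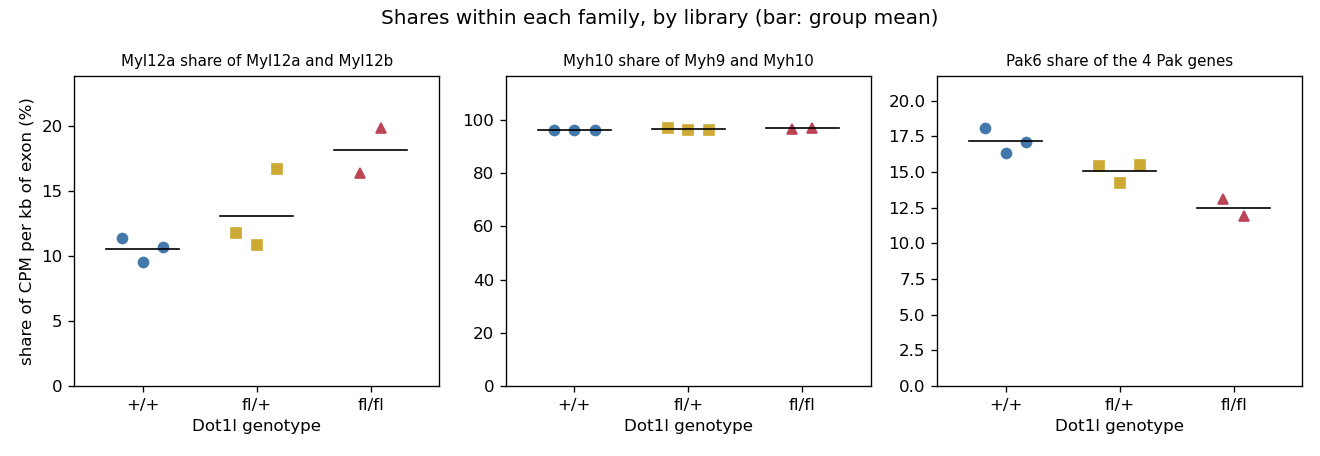
Share of a family's summed CPM per kb of exon taken by Myl12a (of Myl12a and Myl12b), by Myh10 (of Myh9 and Myh10) and by Pak6 (of Pak1, Pak2, Pak3 and Pak6) in each library, in percent on axes that start at 0; bars are group means. Myl12a went from at most 11.4% in Dot1l(+/+) to 16.4% and 19.9% in the Dot1l(fl/fl)-labelled libraries, while the share of Myh10 lay between 96.2% and 97.0% throughout.

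Both heavy chain genes were lower in the Dot1l(fl/fl)-labelled libraries, in contrast to Myl12a. Myh10 was at 434, 361 and 475 CPM in Dot1l(+/+), at 422, 417 and 361 CPM in Dot1l(fl/+), and at 314 and 313 CPM in the Dot1l(fl/fl)-labelled libraries. These last 2 libraries lay below every other, although the Dot1l(+/+) libraries differed more from each other (423 ± 57.4 CPM, SD, n = 3) than the Dot1l(fl/+) libraries did (400 ± 33.7 CPM, SD, n = 3).

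Myh10 differed by a log2 fold change of -0.43 ± 0.11 (SE) in Dot1l(fl/fl) against Dot1l(+/+), and the same to 2 decimals with Dot1l(fl/fl)-labelled library 2 left out. With an offset per library for exon length and GC content it was -0.28. Set against Dot1l(fl/+), it was -0.35 ± 0.11 (edgeR adjusted p = 0.998, unadjusted 0.00358), and for Dot1l(fl/+) against Dot1l(+/+) it was -0.08 ± 0.10 (edgeR adjusted p = 0.997).

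Myh9, at a far lower CPM than Myh10, followed the same order. It was at 20.5, 17.4 and 23.3 CPM in Dot1l(+/+), at 16.1, 20.2 and 17.1 CPM in Dot1l(fl/+), and at 13.9 and 12.3 CPM in the Dot1l(fl/fl)-labelled libraries, which again lay below all others. Its log2 fold change was -0.64 ± 0.22 in Dot1l(fl/fl) against Dot1l(+/+), -0.56 with Dot1l(fl/fl)-labelled library 2 left out, and -0.42 with the offset for length and GC content. It was -0.20 ± 0.19 in Dot1l(fl/+) against Dot1l(+/+) (edgeR adjusted p = 0.988) and -0.44 ± 0.22 for Dot1l(fl/fl) against Dot1l(fl/+) (edgeR adjusted p = 0.998, unadjusted 0.0549).

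Since both heavy chains were lower together, their proportion hardly moved. Myh10 made up 96.2% to 96.3% of the summed CPM per kb of the pair in Dot1l(+/+), 96.2% to 97.0% in Dot1l(fl/+), and 96.5% and 96.9% in the Dot1l(fl/fl)-labelled libraries. Over the 8 libraries the log2 CPM of Myh9 and Myh10 correlated with a Pearson's r of 0.90, and those of Myl12a and Myh10 with -0.86. This is a description across libraries of 3 genotypes, of which the Dot1l(fl/fl)-labelled ones were also the shallowest.

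Pak6, a group II kinase and the second gene behind the choice of these genes, was at 166, 149 and 147 CPM in Dot1l(+/+), at 139, 131 and 135 CPM in Dot1l(fl/+), and at 112 and 104 CPM in the Dot1l(fl/fl)-labelled libraries. The 3 genotypes did not overlap: every Dot1l(fl/+) library lay below every Dot1l(+/+) library and above both Dot1l(fl/fl)-labelled libraries. Pak6 was chosen by the first and last of these groups. The share of all genes with such an order was not counted, so nothing is read from it. The means were 154 ± 10.4 (SD, n = 3), 135 ± 3.97 (SD, n = 3) and 108 ± 5.54 CPM (SD, n = 2).

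Pak6 had a log2 fold change of -0.52 ± 0.11 (SE) for Dot1l(fl/fl) against Dot1l(+/+), a fold of 0.700, and -0.47 with Dot1l(fl/fl)-labelled library 2 left out. In Dot1l(fl/+) against Dot1l(+/+), which shares the Dot1l(+/+) libraries with the choosing comparison, it was -0.19 ± 0.10 and missed the threshold (edgeR adjusted p = 0.94, unadjusted 0.0588). Against Dot1l(fl/+), the Dot1l(fl/fl) value was -0.32 ± 0.11 (edgeR adjusted p = 0.998, unadjusted 0.00712). Within the 4 Pak genes, Pak6 made up 16.3% to 18.1% of the summed CPM per kb in Dot1l(+/+), 14.2% to 15.5% in Dot1l(fl/+), and 13.1% and 11.9% in the Dot1l(fl/fl)-labelled libraries.

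The group I kinases had smaller log2 fold changes than Pak6. Pak1 was at 272, 276 and 250 CPM in Dot1l(+/+), at 277, 293 and 273 CPM in Dot1l(fl/+), and at 280 and 289 CPM in the Dot1l(fl/fl)-labelled libraries. The Dot1l(fl/fl)-labelled libraries exceeded those of Dot1l(+/+), but by little: the log2 fold change was 0.10 ± 0.10 in this comparison, 0.08 ± 0.09 in Dot1l(fl/+) against Dot1l(+/+) (edgeR adjusted p = 0.997) and 0.02 ± 0.10 for Dot1l(fl/fl) against Dot1l(fl/+) (edgeR adjusted p = 0.998).

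Pak2, the group I kinase found in most tissues, was at 128, 135 and 123 CPM in Dot1l(+/+), at 120, 125 and 111 CPM in Dot1l(fl/+), and at 116 and 117 CPM in the Dot1l(fl/fl)-labelled libraries. The Dot1l(fl/fl)-labelled libraries lay just below those of Dot1l(+/+) and inside the range of Dot1l(fl/+). For Pak2 the log2 fold change was -0.14 ± 0.11 in Dot1l(fl/fl) against Dot1l(+/+), -0.12 ± 0.10 in Dot1l(fl/+) against Dot1l(+/+) (edgeR adjusted p = 0.983) and -0.03 ± 0.11 for Dot1l(fl/fl) against Dot1l(fl/+) (edgeR adjusted p = 0.998).

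Pak3, the group I kinase known mainly from neurons, was the most even of the 10 genes between Dot1l(fl/fl) and Dot1l(+/+), with a log2 fold change of -0.01 ± 0.09. It was at 536, 540 and 532 CPM in Dot1l(+/+), at 564, 571 and 529 CPM in Dot1l(fl/+), and at 518 and 550 CPM in the Dot1l(fl/fl)-labelled libraries, so that all 3 genotypes overlapped. Its log2 fold change was 0.05 ± 0.08 in Dot1l(fl/+) against Dot1l(+/+) (edgeR adjusted p = 0.997) and -0.06 ± 0.09 for Dot1l(fl/fl) against Dot1l(fl/+) (edgeR adjusted p = 0.998).

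**Figure D3:**
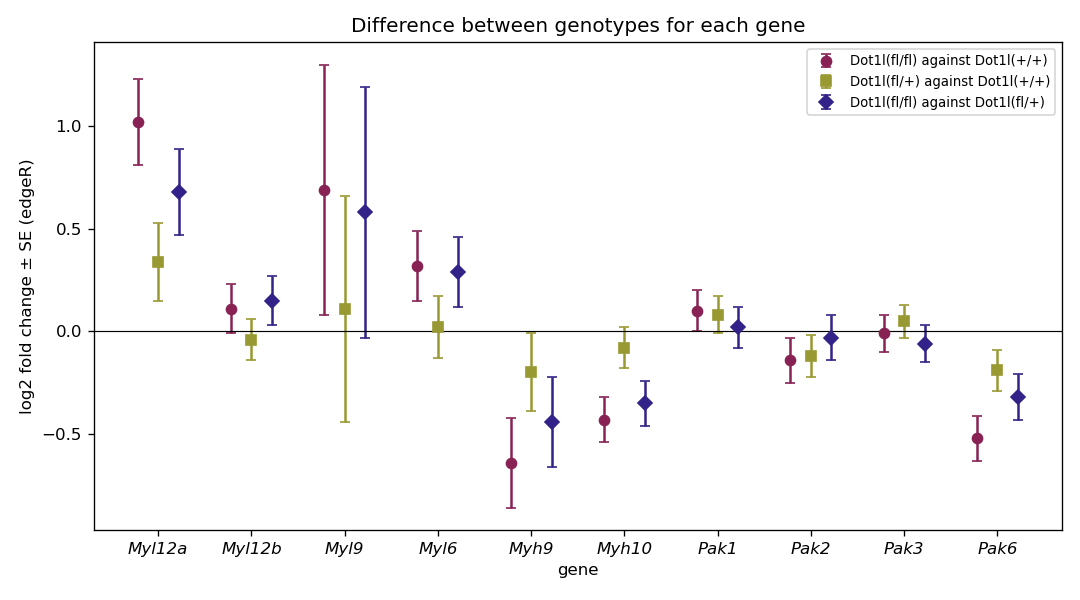
Log2 fold change of the 10 genes in the 3 comparisons of genotypes, with bars of 1 SE from the edgeR fit (n = 3 Dot1l(+/+), 3 Dot1l(fl/+) and 2 Dot1l(fl/fl)-labelled libraries); the 3 comparisons share libraries. In Dot1l(fl/fl) against Dot1l(+/+) the values run from 1.02 for Myl12a to -0.64 for Myh9, and the Myl9 bars are the widest with SEs of 0.55 to 0.61.

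Counted over all 10 genes, the Dot1l(fl/fl)-labelled libraries lay wholly above those of Dot1l(+/+) for 2 genes (Myl12a and Pak1) and wholly below for 4 (Myh9, Myh10, Pak2 and Pak6). Of all genes tested, 12.1% lay wholly above and 11.6% wholly below in the same comparison, which chose Myl12a and Pak6, so nothing is read from these counts. Against Dot1l(fl/+), the Dot1l(fl/fl)-labelled libraries were wholly higher for 3 genes (Myl12a, Myl12b and Myl6; 10.2% of all genes) and wholly lower for 3 (Myh9, Myh10 and Pak6; 9.57% of all genes). These libraries are also among those that chose the genes. Between Dot1l(fl/+) and Dot1l(+/+), Pak6 was wholly lower (5.97% of all genes) and 0 genes were wholly higher (5.56% of all genes).

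By the edgeR test, 0 of the 10 genes passed the adjusted threshold in either of the 2 comparisons that had not chosen them. At an unadjusted p under 0.05, 0 did in Dot1l(fl/+) against Dot1l(+/+), where 2.16% of all genes were higher and 2.86% lower, and 3 did in Dot1l(fl/fl) against Dot1l(fl/+), Myl12a higher (1.86% of all genes) and Myh10 and Pak6 lower (2.16% of all genes). With Dot1l(fl/fl)-labelled library 2 left out (counts added after seeing the data), the same 3 genes had an unadjusted p under 0.05 in the latter comparison, with log2 fold changes of 0.56 for Myl12a, -0.35 for Myh10 and -0.27 for Pak6. In that fit 2.33% of all genes were higher and 3.38% lower. In the former comparison 1 gene (Pak6, lower) had such a p, beside 2.22% of all genes higher and 3.30% lower. DESeq2 called 0 of the 10 in both, and called 0% and 0.00556% of all genes. The median log2 fold change of the 10 genes was 0.045 in Dot1l(fl/fl) against Dot1l(+/+), beside -0.003 over all genes tested.

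Pearson's r of log2 CPM over the 8 libraries was used to find the genes most like Myl12a and Pak6 among 9944 genes with a mean of at least 10 CPM, as a description. The closest to Myl12a were Commd2 (r = 0.954), Vps45 (r = 0.951) and Tank (r = 0.949). Commd2 was at 40.6 CPM in Dot1l(fl/+) 3 and at 37.8 and 45.6 CPM in the Dot1l(fl/fl)-labelled libraries, above the 25.6 to 31.1 CPM of the other 5 libraries, so it shared the high Dot1l(fl/+) 3 value of Myl12a. The closest to Pak6 were the transcription factor gene Tcf4 (r = 0.979), the junctophilin gene Jph4 (r = 0.966) and Kctd12 (r = 0.955), an auxiliary subunit gene of GABA-B receptors. Tcf4 went from 302 to 338 CPM in Dot1l(+/+) through 274 to 290 CPM in Dot1l(fl/+) to 246 and 242 CPM in the Dot1l(fl/fl)-labelled libraries.

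The genes around the myosins and Pak kinases were given by 6 lists of 90 genes, of which 89 were matched and 82 passed the filter on low counts. None of the 82 passed the adjusted edgeR threshold in any of the 3 comparisons (0 genes). In Dot1l(fl/fl) against Dot1l(+/+), 2 were higher and 8 lower at an unadjusted p under 0.05, beside 4.24% higher and 5.03% lower of all genes. DESeq2 called 3 of them, all lower (Cdc42bpb, Myo9a and Ssh2), of the 46 list genes to which it gave an adjusted p, or 6.52%, and it called 2.68% of the 6828 genes that had one. With Dot1l(fl/fl)-labelled library 2 left out, 3 of 83 tested list genes were higher and 14 lower at an unadjusted p under 0.05, beside 4.48% higher and 6.61% lower of all genes in that fit. With both libraries of that label the median over the lists was -0.11 (30 genes higher, 52 lower), beside -0.003 over all genes tested. It was nearly the same in Dot1l(fl/+) against Dot1l(+/+), at -0.09 (29 higher, 53 lower), beside -0.007 over all genes. In Dot1l(fl/fl) against Dot1l(fl/+) it was -0.02 (37 higher, 45 lower), beside 0.001.

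Among the kinases and the phosphatase that set light chain phosphorylation, 17 genes were tested in Dot1l(fl/fl) against Dot1l(+/+). At an unadjusted p under 0.05, 0 were higher and 3 lower, beside 4.24% and 5.03% of all genes. The median log2 fold change was -0.14, beside -0.003 over all genes. Cdc42bpb, which encodes the Cdc42-binding kinase MRCK beta, was at 293, 255 and 287 CPM in Dot1l(+/+) and at 235 and 214 CPM in the Dot1l(fl/fl)-labelled libraries, with 255, 272 and 246 CPM in Dot1l(fl/+). Its log2 fold change in Dot1l(fl/fl) against Dot1l(+/+) was -0.31 ± 0.10, with adjusted p-values of 0.311 by edgeR and 0.0465 by DESeq2. Dapk1, a death-associated kinase that can phosphorylate the light chain, had a log2 fold change of -0.30 ± 0.12 (edgeR adjusted p = 0.398, DESeq2 adjusted p = 0.124).

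Among 22 unconventional myosins, motors that carry cargo or link membranes to actin, 0 were higher and 3 lower at an unadjusted p under 0.05. Of all genes, 4.24% were higher and 5.03% lower at that p. The median log2 fold change was -0.18, beside -0.003 over all genes. Myo9a, a myosin that also acts on small GTPases, was at 150, 133 and 143 CPM in Dot1l(+/+), at 123, 120 and 105 CPM in Dot1l(fl/+), and at 92.1 and 117 CPM in the Dot1l(fl/fl)-labelled libraries. All Dot1l(+/+) libraries thus exceeded the others. The log2 fold change in Dot1l(fl/fl) against Dot1l(+/+) was -0.44 ± 0.12, with adjusted p-values of 0.248 by edgeR and 0.0341 by DESeq2, and in Dot1l(fl/+) against Dot1l(+/+) it was -0.29 ± 0.11 (edgeR adjusted p = 0.94). No gene of the lists was called by edgeR in a fit that kept both Dot1l(fl/fl)-labelled libraries. Myo16 had a log2 fold change of -0.35 ± 0.12 in Dot1l(fl/fl) against Dot1l(+/+) (edgeR adjusted p = 0.331).

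LIM kinases, cofilins, destrin and the slingshot phosphatases that oppose LIM kinase, with Tesk1, Tesk2, Cap1 and Cap2, held 12 tested genes. At an unadjusted p under 0.05, 1 was higher and 1 lower, beside 4.24% and 5.03% of all genes. The median log2 fold change was 0.02, beside -0.003 over all genes. Ssh2, a slingshot phosphatase, was at 116, 111 and 130 CPM in Dot1l(+/+), at 105, 113 and 99.2 CPM in Dot1l(fl/+), and at 89.0 and 88.1 CPM in the Dot1l(fl/fl)-labelled libraries, and its log2 fold change in Dot1l(fl/fl) against Dot1l(+/+) was -0.43 ± 0.12 (adjusted p of 0.245 by edgeR and 0.0212 by DESeq2). Dstn, the actin-severing protein destrin, had a log2 fold change of 0.27 ± 0.10 (edgeR adjusted p = 0.354).

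The list of the other Pak kinases and Pak partners held 12 tested genes. At an unadjusted p under 0.05, 0 were higher and 1 lower, beside 4.24% and 5.03% of all genes. The median log2 fold change was -0.13, beside -0.003 over all genes. Pak5, of the same group as Pak6, was at 97.6, 104 and 96.7 CPM in Dot1l(+/+), at 94.8, 97.1 and 89.4 CPM in Dot1l(fl/+), and at 77.4 and 84.1 CPM in the Dot1l(fl/fl)-labelled libraries. The log2 fold change in Dot1l(fl/fl) against Dot1l(+/+) was -0.30 ± 0.12 (edgeR adjusted p = 0.378). Ppm1e, a phosphatase that acts on Pak kinases, had a log2 fold change of -0.21 ± 0.11 (edgeR adjusted p = 0.574).

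At an unadjusted p under 0.05, 4.24% of all genes were higher and 5.03% lower in Dot1l(fl/fl) against Dot1l(+/+). Of 15 genes for actin, tropomyosin and crosslinkers, 0 were lower and 1 was higher at that p. This was Tpm3, a tropomyosin that lies along actin filaments, with 0.29 ± 0.12 (edgeR adjusted p = 0.447), and Tmod2, a neuronal tropomodulin, had -0.19 ± 0.09 (edgeR adjusted p = 0.55). The 4 further class II myosin subunits tested had 0 genes at an unadjusted p under 0.05. Myl6b, a second essential light chain, had 0.16 ± 0.20 (edgeR adjusted p = 0.912), and Myl4 was at no more than 1.51 CPM in any library, with 2.65 ± 1.96 (edgeR adjusted p = 0.738).

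**Figure D4:**
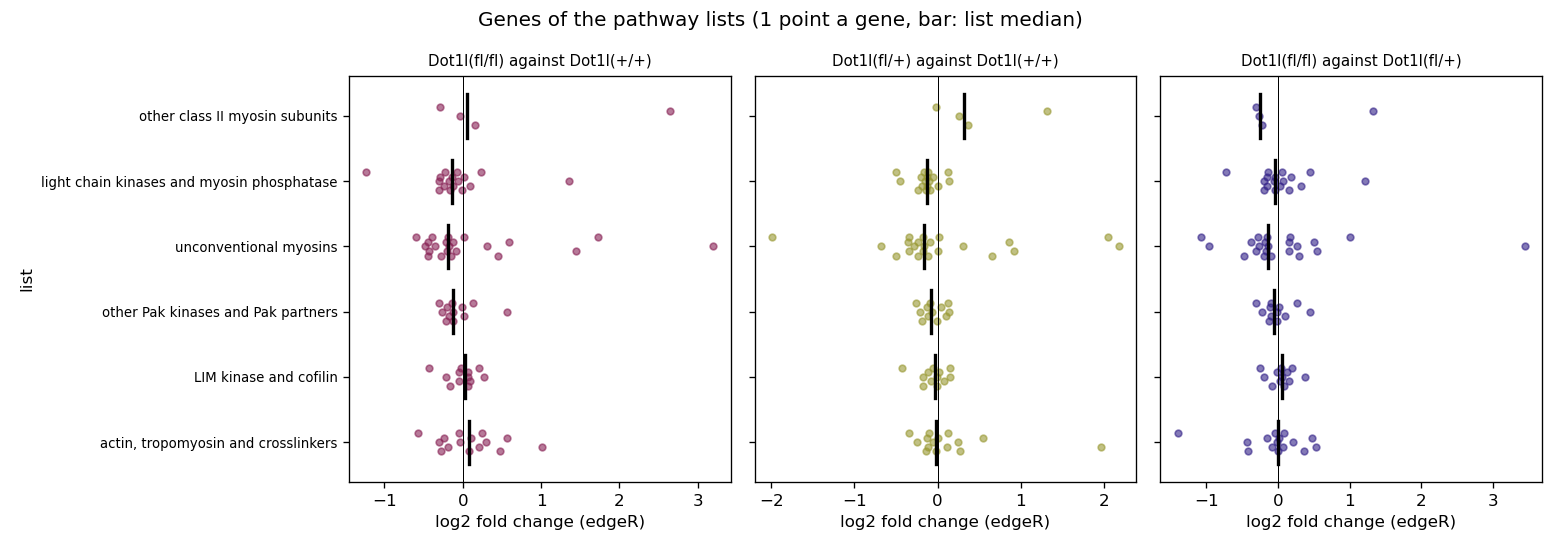
Log2 fold change of the 82 tested genes of the 6 pathway lists in each comparison of genotypes; a point is a gene and the bar is the list's median. Medians lie between -0.24 and 0.32, and the points beyond 1.5 in either direction belong to genes at no more than 1.51 CPM in any library (Myl4, Myo15, Myo3a, Myo5c and Tmod1).

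**Figure D5:**
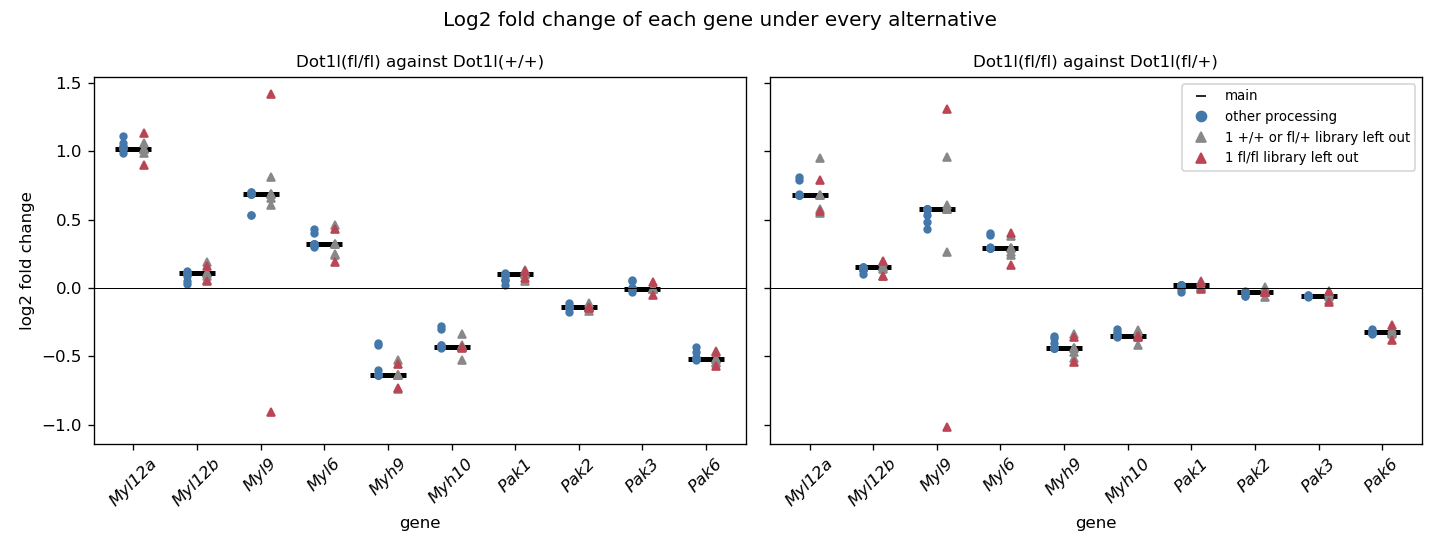
Log2 fold change of the 10 genes in Dot1l(fl/fl) against Dot1l(+/+) (left) and against Dot1l(fl/+) (right) as reported (bar), under 9 other ways of processing (circles) and with 1 library left out (triangles, red where that was a Dot1l(fl/fl)-labelled one). In the left panel Myl12a stays between 0.90 and 1.13 and Pak6 between -0.57 and -0.43, whereas Myl9 runs from -0.91 to 1.42.

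Across all 17 alternatives the log2 fold change of Myl12a in Dot1l(fl/fl) against Dot1l(+/+) lay between 0.90 and 1.13, that of Pak6 between -0.57 and -0.43, that of Myh10 between -0.53 and -0.28 and that of Myh9 between -0.74 and -0.40. With Dot1l(fl/fl)-labelled library 2 left out, the values not yet given were 0.16 for Myl12b, 0.07 for Pak1, -0.15 for Pak2 and -0.05 for Pak3. These ranges describe the comparison that chose the genes and test nothing.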

How the data were processed

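The files that the authors deposited hold unnormalised counts, whole numbers of reads, for 47729 Ensembl genes in each of the 8 libraries. The submitters' processing notes name bcl2fastq 2.17, Trimmomatic 0.30, DESeq2 1.10.1 and the build GRCm38.p4. Which aligner and counting program were used, and with which strand setting, is not given in the sources used here. Tables of the authors' own comparisons (fold changes and p-values) were used only to pair identifiers with symbols. A further gene list was left out and is not reported here. The 10 genes and all lists were chosen with earlier results of these data known. Groups and replicate numbers came from the sample titles.

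Counts were tested with edgeR 4.0.16 (R 4.3.3), quasi-likelihood, TMM factors, filterByExpr (17988 genes kept), all genotypes in a single fit, Benjamini-Hochberg over all genes tested, threshold 0.05. SEs were the log2 fold change over the root of F. Log2 CPM used a prior count of 2. DESeq2 1.42.0 was an alternative, as were other size factors, filters, a replicate block, a length and GC offset per library (splines) and leaving out each library. Exons, coding sequences and lengths came from GENCODE M21, in which 99.1% of identifiers were found, and upstream windows from RefSeq. Named list genes were those past the threshold, and the 2 with the smallest p in Dot1l(fl/fl) against Dot1l(+/+) in each list. Between replicates of a genotype, chi-square divided by its degrees of freedom was 17.4 to 42.2, so none was counted as 1 library. The scripts were tested on simulated data.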

Additional observations from a re-analysis of the deposited data

How the results depend on the processing

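None of the 10 genes passed the adjusted threshold under any alternative in the 2 comparisons that had not chosen them (0 genes). Over all genes, Dot1l(fl/fl) against Dot1l(+/+), with 0 calls, gave 106 without a filter, 2 (Gm5678 and Kctd12) with a mean count of at least 50, 183 with DESeq2 and 8 with the length and GC offset. Leaving out 1 library of Dot1l(+/+) or Dot1l(fl/+) gave 0 to 75, with 75 without Dot1l(+/+) 2. Counts with a Dot1l(fl/fl)-labelled library left out are not given, since 1 library then stands for that group. Without a filter, Dot1l(fl/+) against Dot1l(+/+) gave 11 and Dot1l(fl/fl) against Dot1l(fl/+) 14. DESeq2 called 1 gene, Kctd12, in the latter, where leaving out 1 library of Dot1l(+/+) or Dot1l(fl/+) gave 0. Pathway list calls in Dot1l(fl/fl) against Dot1l(+/+) were 3 with DESeq2 and 0 with 1 library of those 2 genotypes left out. What lies behind these counts was not tested.

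A fit with the replicate block (the numbers as blocking factor) changed counts as well: Dot1l(fl/fl) against Dot1l(+/+) gave 6 calls and Dot1l(fl/fl) against Dot1l(fl/+) 4 (1500015A07Rik, Aldh1a1, Gm15564 and Lars2), and with the block and the length and GC offset 21 and 8. Deviations of same-numbered libraries correlated with r between -0.182 and 0.188 (7 pairs) and those of other pairs between -0.294 and 0.294. The pools were paired by nest, but these values do not show that the numbers mark the sets, and which libraries form a set is not given in the sources used here. With the block, Myl12a was at 0.81 (edgeR adjusted p = 0.716) and Pak6 at -0.34 (adjusted p = 1) in Dot1l(fl/fl) against Dot1l(fl/+).

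Signs turned for values near 0 and for Myl9. In Dot1l(fl/+) against Dot1l(+/+), Myl12b (-0.04, -0.09 to 0.04 over the libraries left out) was 0.02 and 0.04 without Dot1l(fl/+) 1 or Dot1l(+/+) 2, Myl9 (0.11, -0.27 to 0.43) was -0.27 without Dot1l(fl/+) 2, Myl6 (0.02, -0.06 to 0.17) was -0.06 to -0.04 without Dot1l(fl/+) 3, Dot1l(+/+) 1 or Dot1l(+/+) 2 and just under 0 with the length and GC offset, and Myh10 (-0.08, -0.18 to 0.01) was 0.02 with that offset, with or without the block, and 0.01 without Dot1l(+/+) 3. In Dot1l(fl/fl) against Dot1l(fl/+), Myl9 (0.58, -1.02 to 1.31) was negative with Dot1l(fl/fl)-labelled library 1 left out, Pak2 (-0.03, -0.07 to 0.01) was 0.01 without Dot1l(fl/+) 2, and Pak1 (0.02, -0.01 to 0.05) was -0.01 with the block, -0.03 with the block and the offset, -0.01 with Dot1l(fl/fl)-labelled library 2 left out and about 0 without Dot1l(fl/+) 3. In Dot1l(fl/fl) against Dot1l(+/+), Pak3 (-0.01) was 0.06 with the offset, and Myl9 turned as given above. The scaling alternatives moved the median of all genes by at most 0.008. Depth limits Myl9 most, with 16 to 108 counts a library.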
